A study of Mus musculus with 10 samples.

Results

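The genes described here are 8 autosomal imprinted genes of the mouse that are known to be expressed mainly from the maternal allele: H19, Cdkn1c, Igf2r, Meg3, Ube3a, Phlda2, Cd81 and Ascl2. Their probe sets were taken by gene symbol from the annotation of the array. 7 genes had 8 probe sets with a single symbol (2 of them for Meg3), and the remaining gene, H19, had 1 probe set that the annotation assigns jointly to H19 and to the microRNA gene Mir675, which lies inside it. That probe set is called H19/Mir675 and is kept apart from the others by name. These are 9 of the 12488 probe sets on the array, and all 9 passed the filter on low values. The 10 arrays carry RNA of the whole brain, taken on postnatal day 0. XmO animals (39 chromosomes, single X of maternal origin by its label, 3 arrays) and XX_Paf females (40 chromosomes, 3 arrays) came from the cross C57BL/6J x C3H/Paf. XpO animals (39 chromosomes, single X of paternal origin by its label, 2 arrays) and XX_InX females (40 chromosomes, 2 arrays) came from the cross In(X)/C3H x C57BL/6J, where In(X) is the nomenclature for an inversion of the X. The labels do not say whether an array holds 1 animal or a pool, nor which strain was the mother.

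Imprinted genes carry a methylation mark set in the egg or the sperm, and are then transcribed from 1 parental chromosome only. H19, a noncoding RNA, and its neighbour Igf2, a growth factor expressed from the paternal allele, share enhancers, and CTCF bound to the unmethylated maternal control region directs these enhancers to H19. Cdkn1c, Phlda2, Cd81 and Ascl2 lie in the adjoining domain, which the paternal noncoding RNA Kcnq1ot1 silences, for Cd81 and Ascl2 chiefly in the placenta. Meg3 is the maternal noncoding RNA of the domain that holds the paternally expressed Dlk1. In mouse neurons Ube3a is maternal while Igf2r is transcribed from both alleles. The arrays measure the sum of both alleles and cannot separate them, and in whole brain RNA a smaller number of cells of a type cannot be told apart from less RNA per cell.

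In assembly GRCm38.p6, 5 of the genes lie within 928 kb of distal chromosome 7, in the order H19 (142575530 to 142578146), Ascl2 (142966822 to 142969264), Cd81 (143052750 to 143067930), Cdkn1c (143458339 to 143461059) and Phlda2 (143501545 to 143503145). Ube3a lies farther up the same chromosome (59228750 to 59310837), Meg3 on chromosome 12 (109540996 to 109571729) and Igf2r on chromosome 17 (12682406 to 12769706). H19 and Meg3 are annotated as long noncoding RNAs and the other 6 as protein coding. The microRNA inside H19 is shown because it shares that gene's probe set. Its mature arms, from RefSeq on the minus strand of chromosome 7, are given 5′ to 3′ with the seed (bases 2 to 8) in capitals, and the seeds of the arms differ.
mmu-miR-675-5p: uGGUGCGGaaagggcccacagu
mmu-miR-675-3p: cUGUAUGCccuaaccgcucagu

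Start-site windows of Meg3 and Ascl2 are shown because these genes had the lowest unadjusted p-values between the crosses (below), and CG dinucleotides, where vertebrate DNA is methylated, are in capitals. Each window (RefSeq, GRCm38.p6) holds 250 bases before and 50 after an annotated start. The first Meg3 window is chr12:109540746-109541045 on the plus strand, the second chr12:109545148-109545447 on the plus strand, and the Ascl2 window chr7:142969215-142969514 on the minus strand.
Meg3, first start: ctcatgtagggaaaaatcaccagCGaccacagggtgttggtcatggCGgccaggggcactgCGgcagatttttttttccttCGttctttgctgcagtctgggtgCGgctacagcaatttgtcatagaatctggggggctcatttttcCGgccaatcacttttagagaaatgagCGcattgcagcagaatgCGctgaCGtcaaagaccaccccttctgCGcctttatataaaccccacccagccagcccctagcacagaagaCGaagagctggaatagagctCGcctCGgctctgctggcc
Meg3, second start: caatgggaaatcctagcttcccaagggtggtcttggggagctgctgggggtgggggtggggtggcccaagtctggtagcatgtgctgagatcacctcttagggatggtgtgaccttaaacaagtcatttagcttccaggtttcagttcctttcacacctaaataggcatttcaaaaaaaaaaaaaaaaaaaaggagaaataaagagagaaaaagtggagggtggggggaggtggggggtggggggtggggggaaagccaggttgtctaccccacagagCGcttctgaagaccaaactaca
Ascl2: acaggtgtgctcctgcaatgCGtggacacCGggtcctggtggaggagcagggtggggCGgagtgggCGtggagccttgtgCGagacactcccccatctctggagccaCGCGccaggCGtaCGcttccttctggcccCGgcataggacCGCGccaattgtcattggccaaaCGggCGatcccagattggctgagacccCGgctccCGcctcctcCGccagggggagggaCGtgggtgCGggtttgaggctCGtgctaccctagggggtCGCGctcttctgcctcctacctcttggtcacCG
The first Meg3 window has 13 CG dinucleotides, the second 1 and the Ascl2 window 23, against a median of 7 over all 32851 windows. Of the other members with a window, Igf2r has 34, Ube3a 29, Phlda2 26 and Cd81 23. The first Meg3 window also holds the palindrome TGACGTCA, the recognition sequence of the CREB family, at position -57 from the start, which 1.79% of all windows hold, and TATAAA on the plus strand at -25, which 13.6% of windows hold on either strand. The letters of both motifs are a description of the window and not evidence of binding.

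The trimmed mean intensity was 500.3 on each array, and intensities are compared between arrays for a probe set and not between probe sets. Xist, the RNA of the inactive X, lay between 1673 and 4082 on the XX arrays and between 21.3 and 49.9 on the XO arrays, as the labels require. Background was read from 9 probe sets of Y-linked genes, since the labels give no animal a Y chromosome, and the brightest of the 9 lay between 33.6 and 136.6 depending on the array. The first principal component (25.6% of the variance) ran from -23.6 (XX_Paf 1) to 27.4 (XpO 18), and put XpO 15, at -15.0, among the XX_Paf arrays. As a check of the tissue, all 6 neuronal markers (Map2, Tubb3, Snap25, Syt1, Stmn2 and Nefl) were above that background on every array.

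**Figure D1:**
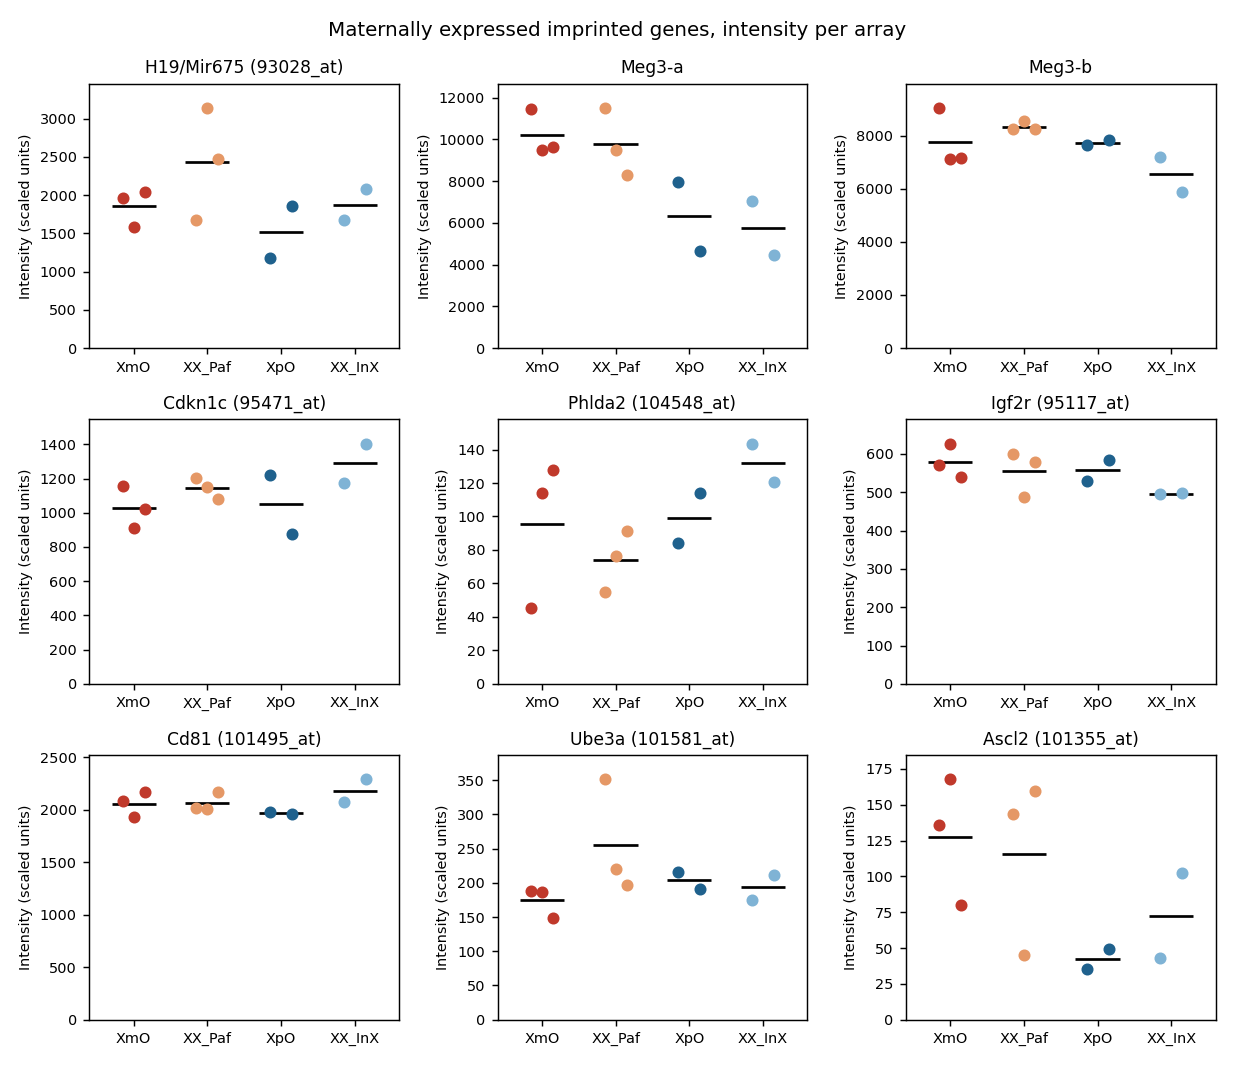
Intensity (scaled units, linear axis from 0) of the 9 probe sets by group; each point is 1 array and each line the mean of the group (3, 3, 2 and 2 arrays). The panel of Meg3-a, a probe set of Meg3, is the one in which all 6 arrays of the Paf cross (8309 to 11516) lie above all 4 of the In(X) cross (4459 to 7957).

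Of the members, Meg3 had the lowest unadjusted p between the crosses, at 1 of its 2 probe sets, while the estimate of Ascl2 was larger (below). Its first probe set, called Meg3-a, read 11442, 9472 and 9655 in XmO and 11516, 9506 and 8309 in XX_Paf. In the In(X) cross it read 7957 and 4657 in XpO and 7033 and 4459 in XX_InX. Every array of the Paf cross was above every array of the In(X) cross, while XO and XX arrays overlapped within each cross. Averaged over XO and XX, the log2 fold change of the Paf cross over the In(X) cross was 0.76 (SE 0.16, 95% interval 0.42 to 1.11), which did not pass over all 8695 tested probe sets (limma, adjusted p = 0.104). Without XpO 15 it was 0.96 and passed (limma, adjusted p = 0.0238), and without XpO 18 it was 0.57 (limma, adjusted p = 0.341).

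The other Meg3 probe set, called Meg3-b, did not show the same separation. It read 9056, 7114 and 7153 in XmO, 8246, 8535 and 8243 in XX_Paf, 7631 and 7854 in XpO, and 7201 and 5893 in XX_InX. The XpO arrays lay inside the range of XmO, and the difference between XmO and XpO was 0.00 in log2 (SE 0.12), against 0.74 (SE 0.23) for Meg3-a. The Meg3-a value was 0.35 without XpO 18 and 1.12 without XpO 15. Over both karyotypes the cross difference of Meg3-b was 0.18 (SE 0.09, interval -0.01 to 0.37; limma, adjusted p = 0.430). The array's annotation gives a different source sequence record for each of them. Across the 10 arrays they correlated at r = 0.628 (Spearman's rho 0.564), as a description of arrays that share groups.

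H19/Mir675 read 1966, 1580 and 2043 in XmO, 1674, 3143 and 2469 in XX_Paf, 1177 and 1860 in XpO, and 1668 and 2077 in XX_InX. XX_Paf 2 was the highest array and XpO 15 the lowest, and XO overlapped XX in both crosses. XX_Paf 2 also had the highest summed intensity of 7 markers of skeletal muscle, a tissue known for strong H19 expression around birth, at 3491 against 745 to 1252 on the other 9 arrays. Most of that sum was Acta1, the skeletal actin gene, at 2448.2 there and 179.6 to 574.3 elsewhere. Not all muscle markers followed it: Ckm was at most 159.9 in XX_Paf and 220.6 to 260.0 in XX_InX, and Myog was at most 227.5 in XX_Paf and up to 404.7 in XpO. Of these markers, Tnni2 and Myh3 stayed below this background on all 10 arrays. The probe sets most like H19/Mir675 across arrays were those of the muscle myosin light chain genes Mylpf (r = 0.814) and Myl1 (r = 0.806). Spryd4 came next, at nearly the same value (r = 0.799). These values were the highest among all tested probe sets, so they are high by selection and are given as a description. Mylpf is also among the 7 markers of the muscle sum, so it is not separate from that sum. Mylpf read 469.3 in XX_Paf 2 and 102.2 to 217.1 elsewhere. XX_Paf 3, the second highest array for H19/Mir675 (2469), had the lowest muscle sum (745). XmO 1, with a sum of 1252, read 1966 for H19/Mir675. The log2 fold change of XmO over XX_Paf was -0.34 (SE 0.22; limma, adjusted p = 0.887) with XX_Paf 2 and -0.13 without it, and the part of muscle RNA in it was not tested. Without XX_Paf 1 it was -0.59.

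Igf2, which shares its enhancers with H19, read 6074, 7909 and 7638 in XmO and 6537, 6791 and 6749 in XX_Paf, and 7127 and 10416 in XpO and 9035 and 9331 in XX_InX. These values are of the brighter Igf2 probe set, which is the one used throughout. The other read 9.3 to 68.1, below background on all 10 arrays. The XX_InX arrays were above all XX_Paf arrays for Igf2, while H19/Mir675 overlapped between these groups. Over the 10 arrays H19/Mir675 and Igf2 had r = -0.152 (rho = -0.176; permutation test, two-sided, p = 0.676 for r and 0.633 for rho). Without XX_Paf 2 and XpO 15, the arrays farthest from the median of H19/Mir675, r was -0.192, within the 6 Paf-cross arrays it was -0.245, and for deviations from the group means it was 0.407.

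**Figure D2:**
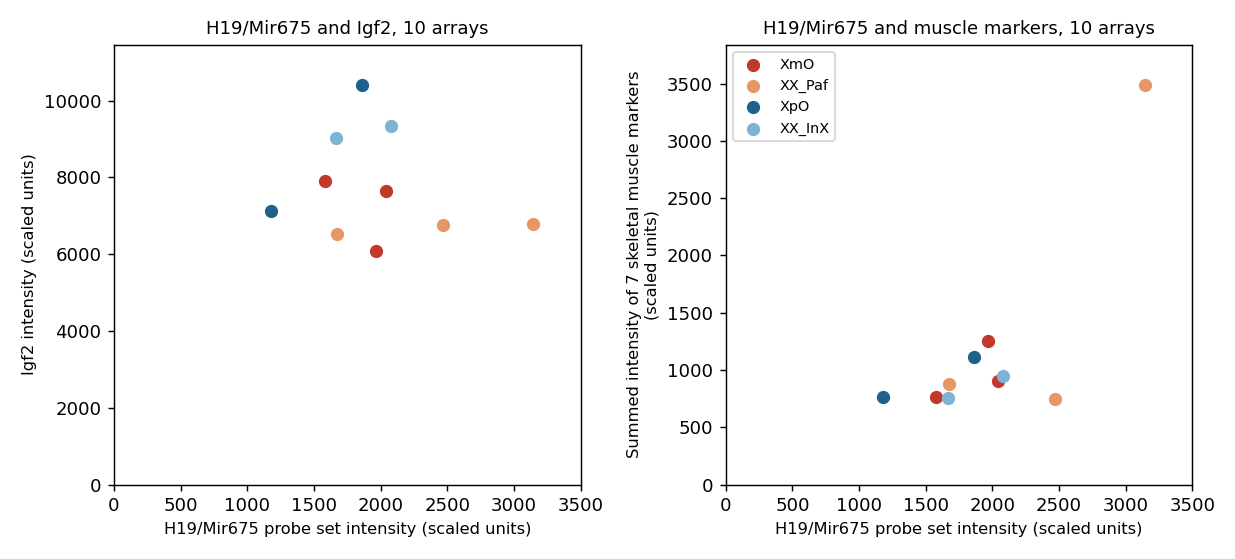
Intensity of the H19/Mir675 probe set (horizontal axis, scaled units) against Igf2 intensity (left) and against the summed intensity of 7 skeletal muscle markers (right), 1 point per array, coloured by group. The array at the far right of both panels is XX_Paf 2, which also has the muscle sum of 3491; the other 9 arrays have sums of 745 to 1252.

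In the adjoining domain, Cdkn1c, which encodes the CIP/KIP cell cycle inhibitor p57, read 1158, 913 and 1019 in XmO and 1201, 1153 and 1082 in XX_Paf. It read 1224 and 876 in XpO and 1175 and 1405 in XX_InX. The groups overlapped within each cross, although the XO mean was lower in both: 1030 ± 123 against 1145 ± 60.2 (SD, n = 3 each) in the Paf cross and 1050 ± 246 against 1290 ± 162 (SD, n = 2 each) in the In(X) cross. The combined log2 fold change of XO over XX was -0.24 (SE 0.12, interval -0.49 to 0.02; limma, adjusted p = 1).

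Cd81, a tetraspanin of the plasma membrane, was the steadiest of the members, with a spread within groups of 0.07 in log2 that lay at percentile 1.59 of all tested probe sets. It read 2079, 1928 and 2167 in XmO, 2017, 2009 and 2168 in XX_Paf, 1977 and 1958 in XpO, and 2074 and 2288 in XX_InX. Its XO over XX estimate was -0.08 with an interval of -0.25 to 0.09, and its cross difference was -0.01 with an interval of -0.18 to 0.16. For Cd81, differences beyond these bounds are outside the 95% intervals of these averaged comparisons only. Within a cross the intervals were wider, at -0.22 to 0.21 for XmO against XX_Paf and -0.41 to 0.12 for XpO against XX_InX.

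Phlda2, which encodes a pleckstrin homology domain protein that limits placental growth, and Ascl2, a bHLH transcription factor needed for the trophoblast, read near background. Each exceeded the background of its array on 6 of 10 arrays. Phlda2 read 45.2, 114.3 and 127.5 in XmO, 54.6, 76.1 and 91.4 in XX_Paf, 83.9 and 114.0 in XpO, and 143.6 and 120.5 in XX_InX. All XX_Paf arrays were below both XX_InX arrays, with a log2 fold change of -0.86 (SE 0.47; limma, adjusted p = 0.430), and 2 of the 3 XX_Paf arrays were at background. Ascl2 read 135.8, 167.7 and 79.7 in XmO, 143.4, 45.0 and 159.3 in XX_Paf, 35.4 and 49.5 in XpO, and 42.7 and 102.3 in XX_InX. XmO lay above XpO on every array, by 1.54 in log2 (SE 0.60; limma, adjusted p = 0.969), with 1 of 3 XmO and 1 of 2 XpO arrays at background. Over both karyotypes the Ascl2 cross difference was 1.08 (SE 0.42; limma, adjusted p = 0.332), with arrays of the crosses overlapping.

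Igf2r encodes the cation-independent mannose 6-phosphate receptor, which carries lysosomal enzymes and clears IGF2. It read 571.3, 627.2 and 540.8 in XmO, 600.6, 487.3 and 579.8 in XX_Paf, 529.0 and 585.3 in XpO, and 494.8 and 498.2 in XX_InX. Both XpO arrays were above both XX_InX arrays, by 0.16 in log2 (SE 0.17, interval -0.20 to 0.53; limma, adjusted p = 1). Igf2r and Igf2 had r = -0.184 over the 10 arrays (rho = -0.127; permutation test, p = 0.606 and 0.734), -0.442 without XX_Paf 2 and XmO 2, and 0.157 within the 6 Paf-cross arrays. For deviations from the group means r was 0.315, of opposite sign to the value over all arrays.

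Ube3a encodes the ubiquitin ligase E6-AP, whose maternal loss causes Angelman syndrome in humans. It read 187.4, 186.2 and 149.0 in XmO, 351.2, 219.5 and 196.7 in XX_Paf, 216.4 and 191.2 in XpO, and 175.6 and 211.5 in XX_InX. Every XmO array was below every XX_Paf array, by -0.51 in log2 (SE 0.24, interval -1.04 to 0.01), which did not pass (limma, adjusted p = 0.877). XX_Paf 1 held much of that gap, since the estimate was -0.26 without it. In the In(X) cross the groups overlapped and the estimate was 0.08 (SE 0.29).

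The comparison of XO with XX, with equal weight for each cross, asked whether loss of an X goes with a change of these autosomal genes. By limma 0 of the 9 member probe sets passed at an adjusted p under 0.05, 0 had an unadjusted p under 0.05 and 0 had XO and XX arrays that did not overlap. Over all tested probe sets these shares were 0.0115%, 2.60% and 0.334%. Estimates were higher in XO for 3 members and lower for 6, with a median of -0.08 against 0.00 for all tested probe sets, and ran from -0.34 (H19/Mir675) to 0.11 (Igf2r). Among markers of other tissues, the pituitary hormone gene Prl had an XO over XX estimate of -1.34 (SE 0.30; limma, adjusted p = 0.953), with every XO array below every XX array. Prl read near background in XO, at 36.1 to 87.9 in XmO and 59.6 to 72.3 in XpO. Of 4 tested pituitary markers 1 had a higher estimate in XO and 3 a lower one (median -0.09). The choroid plexus gene Ttr was at -0.53 (SE 0.20). Of 4 tested muscle markers 3 had lower estimates in XO and 1 higher (median -0.39), the latter being Myog (1.07, SE 0.28). The part of these tissues in the members' values was not tested. In XmO against XX_Paf, 0 of 9 passed by limma (background 0.0230%) and 0 had an unadjusted p under 0.05 (5.53%). The groups did not overlap for Ube3a alone (1 of 9, background 13.9%).

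In XpO against XX_InX, 0 of 9 passed by limma (background 0.0115%) and 0 had an unadjusted p under 0.05 (3.38%). Here 4 of 9 did not overlap, where 23.4% of all tested probe sets did so with 2 arrays a side. Cd81 (-0.15, SE 0.12) and Phlda2 (-0.43, SE 0.51) were lower in XpO, and Meg3-b (0.25, SE 0.14) and Igf2r were higher. Without XX_InX 19 the Meg3 estimate was 0.10, and Phlda2 was -0.21 without XpO 15.

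The difference between these monosomy effects was tested as an interaction. By limma 0 of 9 members passed (background 0.0230%) and 0 had an unadjusted p under 0.05 (5.91%), with estimates from -0.59 (Ube3a) to 0.93 (Ascl2). Thus for Ube3a, which was below XX on every XmO array and overlapped XX in XpO, the test of the difference itself did not pass.

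**Figure D3:**
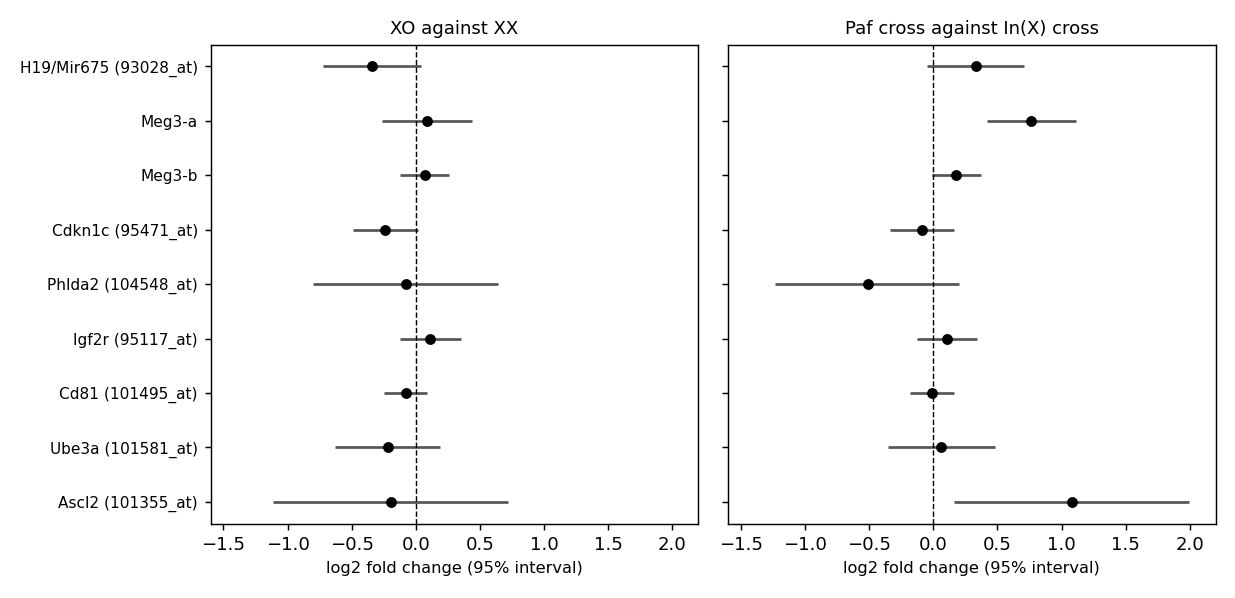
Log2 fold change (points) with 95% interval (lines) of the 9 probe sets in XO against XX (left) and in the Paf cross against the In(X) cross (right), from the fit to all 10 arrays. On the left every interval includes 0; on the right the intervals of Meg3-a (0.42 to 1.11) and Ascl2 (0.16 to 1.99) do not, before adjustment over all probe sets.

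XmO against XpO asks whether it matters from which parent the only X came, and XX_Paf against XX_InX gives the same difference of crosses in females with a full pair of X chromosomes. These comparisons share no array. The order of mother and father in the cross names is not stated. If the mother comes first, the maternal allele of every gene named here came from C57BL/6J in the Paf cross and from C3H in the In(X) cross, so the strain of the expressed allele and the direction of the cross cannot be told apart. In XmO against XpO 0 of 9 members passed by limma (background 0.0115%). An unadjusted p under 0.05 was reached by 2 of 9 (background 4.83%), Meg3-a and Ascl2. Groups did not overlap for these and for Ube3a (3 of 9, background 17.4%), whose estimate was -0.23 (SE 0.27).

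In XX_Paf against XX_InX 0 of 9 passed by limma (background 0.0805%). Both Meg3 probe sets had an unadjusted p under 0.05 (2 of 9, background 13.8%), with estimates of 0.36 (SE 0.12; limma, adjusted p = 0.256) for Meg3-b and 0.79 (SE 0.23; limma, adjusted p = 0.190) for Meg3-a. Together with Phlda2 they were the 3 of 9 whose groups did not overlap (background 37.1%). With XX_InX 19 left out the estimates were 0.21 and 0.46. Averaged over karyotypes, the Paf cross against the In(X) cross gave 0 of 9 passed by limma (background 0.104%), 2 of 9 with an unadjusted p under 0.05 (Meg3-a and Ascl2, background 12.7%) and 1 of 9 without overlap (Meg3-a, background 3.06%). H19/Mir675 had an estimate of 0.33 there (SE 0.18; limma, adjusted p = 0.457), with 0.17 without XpO 15 and 0.50 without XpO 18.

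Of the marker sums of other tissues, that of erythroid cells separated the crosses and the others overlapped. The summed intensity of 4 erythroid markers was 11189 to 17191 on the Paf-cross arrays and 4006 to 7373 on the In(X)-cross arrays. As for Meg3-a, the Paf cross was higher. Within that cross XmO 7 had the sum of 17191 with Meg3-a at 9655, and XX_Paf 1 had 11658 with Meg3-a at 11516. The erythroid marker Alas2 overlapped between the crosses, at 123.4 to 237.1 in XmO and 140.9 to 189.2 in XX_Paf. It was at 113.2 to 218.3 in XpO and 119.4 to 181.3 in XX_InX. The adult globin genes Hba-a1 (1.27, SE 0.16) and Hbb-b2 (1.34, SE 0.17) passed in the comparison of crosses (limma, adjusted p = 0.0103 each), and neither passed without XpO 18 (limma, adjusted p = 0.0793 each). The part of blood RNA in the Meg3 values was not tested. The sum of 7 muscle markers was 745 to 3491 in the Paf cross and 752 to 1111 in the In(X) cross. The sum of 5 pituitary markers overlapped between the crosses (850 to 1223 against 804 to 1172), as did that of 6 neuronal markers (43463 to 48554 against 46394 to 50568), 7 meningeal (4902 to 5644 against 4472 to 6240), 6 endothelial (1993 to 2401 against 1991 to 2437) and 5 radial glial and astrocytic markers (16466 to 18555 against 15694 to 18374). The sum of 3 choroid plexus markers was 1370 to 3316 against 986 to 2225, with Kl below background on all 10 arrays.

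Within the Meg3 and Cdkn1c domains, the paired genes did not pass a test of correlation. Meg3-a and Dlk1, which encodes a Notch-related membrane protein, had r = -0.455 over 10 arrays, where Dlk1 ran from 548.0 (XX_Paf 1) to 762.5 (XX_InX 19) (rho = -0.406; permutation test, p = 0.189 and 0.248), -0.383 without XX_InX 19 and XpO 18, and -0.565 within the 6 arrays of the Paf cross. For deviations from the group means r was -0.574. Cdkn1c and Phlda2 had r = -0.247 (rho = -0.152; permutation test, p = 0.491 and 0.678), and the value was 0.000982 without XpO 18 and XmO 2, so the pooled value rests on those arrays. For this pair r was -0.816 within the 6 arrays of the Paf cross and -0.691 for deviations from the group means, both given as descriptions with no test. The 4 arrays of the In(X) cross are too few for a value of their own. Over the 4 pairs tested, each adjusted permutation p was 0.676 for r and 0.734 for rho.

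The probe sets most like each member across the 10 arrays were the highest of 8695, so their values are high by selection and are given as a description. Meg3-a was most like Syf2, a splicing factor gene (r = 0.975), Hif1a, the hypoxia-inducible factor gene on the same chromosome 12 (r = 0.970), and Ankrd46 (r = 0.934). Igf2r was most like Gpc1, a glypican gene (r = 0.968), Apbb1 (r = 0.922) and Pou6f1 (r = 0.890). Cdkn1c was most like Vps45 (r = 0.893), Cited2 (r = 0.886) and Tspan4 (r = 0.877), and Cd81 was most like Prim1 (r = 0.861), Flcn (r = 0.847) and Errfi1 (r = 0.844). For Ube3a these were Ckmt1 (r = 0.910), Tbk1 (r = 0.908) and Tank (r = 0.902). For the dim Phlda2 and Ascl2 they were Mgmt (r = 0.936), Dpep3 (r = 0.933) and Tufm (r = 0.922), and Glb1 (r = 0.880), Ankrd13a (r = 0.869) and Pdcd4 (r = 0.839). The third for H19/Mir675 was Spryd4 (r = 0.799). The 28 pairs among the members themselves, which were not selected by r, ran from -0.622 (Meg3 and Phlda2) to 0.660 (Ascl2 and Igf2r).

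Other imprinted genes were compared with the members by counts. Of 13 further maternally expressed genes, 0 passed by limma in XO against XX (median 0.01; 7 higher, 6 lower; 0 with an unadjusted p under 0.05) or between the crosses (median -0.06; 5 higher, 8 lower; 1 with an unadjusted p under 0.05, background 12.7%). That gene was Gnas, which encodes the stimulatory G protein alpha subunit and is maternal in only some tissues. It read 20826 ± 1580 in XmO and 19901 ± 1011 in XX_Paf (SD, n = 3 each) and 25135 ± 1311 in XpO and 25746 ± 751 in XX_InX (SD, n = 2 each), lower on every array of the Paf cross (-0.32, SE 0.07; limma, adjusted p = 0.101). Of 14 paternally expressed genes 0 passed by limma in either comparison. In XO against XX 3 were higher and 11 lower (median -0.11, 0 with an unadjusted p under 0.05). Between the crosses 6 were higher and 8 lower (median -0.02). There 4 had an unadjusted p under 0.05 (background 12.7%). Igf2 (-0.36, SE 0.11), the sarcoglycan gene Sgce (-0.37, SE 0.11) and Nnat (-0.21, SE 0.09) were lower in the Paf cross and the ring finger gene Mkrn3 (0.48, SE 0.14) higher.

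**Figure D4:**
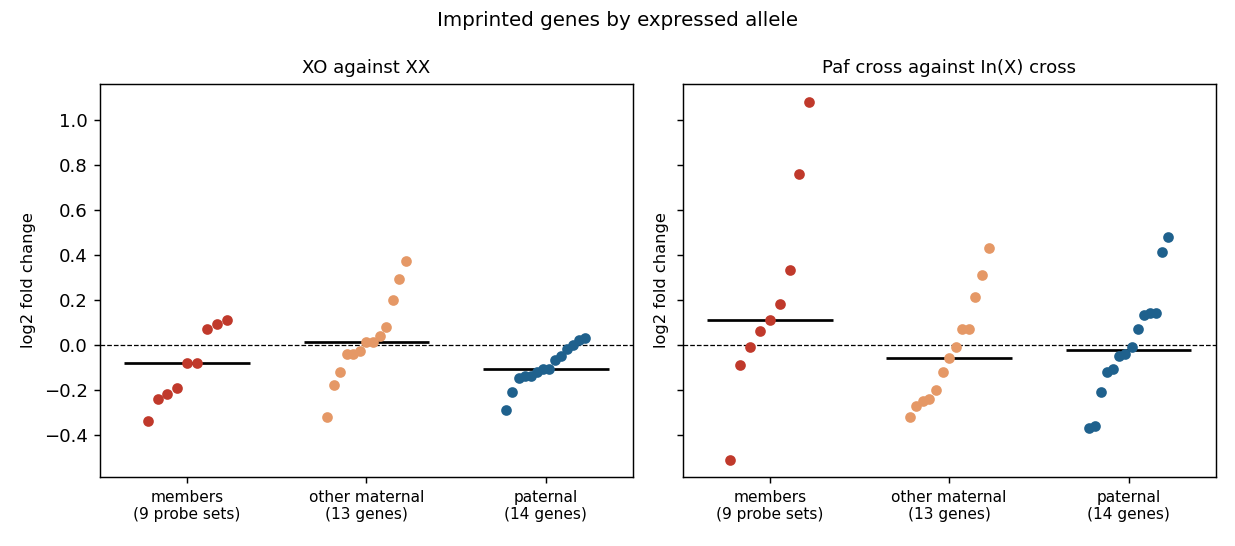
Log2 fold change of the 9 member probe sets, 13 other maternally expressed and 14 paternally expressed imprinted genes in XO against XX (left) and the Paf cross against the In(X) cross (right); each point is a probe set or gene and each line the median of its column. Left medians are -0.08, 0.01 and -0.11; right medians are 0.11, -0.06 and -0.02, with Ascl2 (1.08) and Meg3-a (0.76) as the highest points.

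Genes that act with the members were measured next. Of 10 cyclin-dependent kinase inhibitors, cyclins and their kinases, 1 passed between the crosses by limma (background 0.104%). With that gene included, 2 had an unadjusted p under 0.05 (background 12.7%). Cdkn1a, which encodes the Cdkn1c relative p21, was at 288 ± 40.3 in XmO and 332 ± 51.8 in XX_Paf (SD, n = 3 each) while XpO had 687 ± 167 and XX_InX 633 ± 72.8 (SD, n = 2 each). It was lower on every Paf-cross array, by -1.09 in log2 (SE 0.15; limma, adjusted p = 0.0103), where Cdkn1c had -0.09 (SE 0.12). Without XpO 18 the Cdkn1a value was -0.97 (limma, adjusted p = 0.0793). In XO against XX 0 of the 10 passed by limma and 1 had an unadjusted p under 0.05 (background 2.60%), Ccnd1, the cyclin D1 gene (0.29, SE 0.13). Of 16 tetraspanins and CD81 partners 0 passed in either comparison by limma. The one with an unadjusted p under 0.05 was the interferon-induced Ifitm3, which was at 222 ± 23.3 in XmO and 280 ± 44.6 in XX_Paf (SD, n = 3 each) while XpO had 440 ± 21.1 and XX_InX 399 ± 7.28 (SD, n = 2 each; cross difference -0.76, SE 0.14; limma, adjusted p = 0.0576).

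Between the crosses 12.7% of all tested probe sets had an unadjusted p under 0.05, the background for the counts in the lists that follow. Of 9 IGF signalling genes 0 passed by limma between the crosses (median -0.14) and 3 had an unadjusted p under 0.05. These were Igf2, the insulin receptor substrate gene Irs2 (-0.40, SE 0.15) and the IGF-binding protein gene Igfbp3 (0.85, SE 0.32). Of 9 genes of the mannose 6-phosphate pathway 0 passed (median 0.10), with an unadjusted p under 0.05 for Gnptg, a subunit gene of the enzyme that builds the tag (0.90, SE 0.40). Of 11 HECT ligases and E6-AP partners 0 passed (median 0.02), with Ube2l6 (-0.80, SE 0.31) and the proteasome receptor gene Psmd4 (0.22, SE 0.09) under 0.05 unadjusted. Of 11 proneural bHLH factors and their partners 0 passed (median 0.01), with Neurod2 (-0.39, SE 0.16) and Id1 (0.36, SE 0.13) under 0.05 unadjusted. The 2 tested genes of the Phlda family did not pass (median -0.20). In XO against XX these lists held 0 called genes by limma. The one gene among them with an unadjusted p under 0.05 (background 2.60%) was Neurod6 (0.42, SE 0.13). Of 10 genes that maintain imprints, among them Dnmt1 and Ctcf, 0 passed by limma and 0 had an unadjusted p under 0.05, both between the crosses (median 0.02) and in XO against XX (median 0.06).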

How the data were processed

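Per the file's values, the deposited table gives a linear intensity for each probe set on each array, brought to a common trimmed mean; how the authors summarised probes is not given in the sources used here. Of 12488 probe sets 66 controls were left out. Values under the 10th percentile (15) were raised to it before log2 was taken. The 8695 probe sets with a mean reaching the 30th percentile were tested with limma 3.58.1 in R 4.3.3 (1 mean per group, intensity trend, 6 residual degrees of freedom, 7 contrasts, two-sided, Benjamini-Hochberg within each contrast, threshold 0.05). Fold changes are of log2 intensities. Members and gene lists (18, each gene by its brightest tested probe set) were chosen with earlier results of these data known. Fold changes of members are given where groups did not overlap or the unadjusted p was under 0.05. H19/Mir675 was added after its values were seen, and others are quoted as values. Correlations used 100000 permutations over all 10 arrays without regard to group. Differences between groups therefore enter each r and its permutation p. The model fit was also run on data simulated from its own assumptions (normal noise), for XmO against XX_Paf only. That simulation held no outlying arrays, so it cannot show how the fit handles them. Gene positions, windows and microRNAs are from RefSeq (GRCm38.p6). The labels do not say that arrays are separate animals, so p-values measure only the spread between these samples. Precision is limited by how many arrays there are. No scan dates were used, so batches could not be examined. Alternatives were other floors, filters, normalization, variance and array weights, leave-one-out fits, smaller fits and a replicate block.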

Additional observations from a re-analysis of the deposited data

How the results depend on the processing

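The 16 fold changes of members that were recomputed under the alternatives gave 300 values, of which 0 changed sign. Most had been chosen because their groups did not overlap or their unadjusted p was under 0.05. Several alternatives, such as leaving out an array of a group not compared, cannot move a fold change. The lack of sign changes was therefore largely fixed in advance and is no measure of robustness. The count of members passing was 0 in every comparison and alternative except the Paf cross against the In(X) cross, where leaving out 1 array gave 0 to 1 members (1 without XpO 15, Meg3-a). Whole-table counts were less steady. For the crosses 9 probe sets passed, with 105 without XpO 15, 1 without XpO 18 and 1 without the intensity trend. For XX_Paf against XX_InX 7 passed, with 2 to 35 over the alternatives. The counts were 1 (1 to 5) for XO against XX, 2 (1 to 4) for XmO against XX_Paf, 1 (1 to 7) for XpO against XX_InX, 1 (1 to 7) for XmO against XpO and 2 (0 to 5) for the difference of effects. The calls of Cdkn1a, Hba-a1 and Hbb-b2 between the crosses also ended without the filter and without the trend (highest limma adjusted p = 0.134). With other probe sets Meg3 and Dlk1 had r = -0.438. XmO and XX_Paf share the replicate numbers 1 and 2. The deviations of same-numbered arrays correlated at -0.012 and -0.042, and those of differently numbered arrays at -0.078 to 0.087. So few arrays cannot show whether the numbers pair them. With the replicate block, which uses 8 arrays, 0 members passed in any comparison. The whole-table counts with the block were 3 between the crosses, 3 for XX_Paf against XX_InX, 1 for XmO against XX_Paf and 0 for the difference of effects, and the same 8 arrays without it gave 1, 2, 1 and 0, a setting chosen after seeing the data. Fits of only the groups compared could not be made for comparisons that use all 4 groups. The cause of these changes was not tested.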
